A study of Mus musculus with 19 samples.

Results

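The genes described here carry glucose into muscle fibres, break it down to lactate, move lactate across the membrane, and build and break glycogen. They are 35 genes in all, listed by their known roles in these pathways, with earlier results of these data known. A probe set that names only the gene was available for 32 of them, and 31 of those were among the 7436 genes tested out of 12394 genes with such a probe set. Aldoc was measured but too dim to test, and Gpi1, Eno1 and Pfkfb1 are not analysed here.

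Expression was measured in mouse tibialis anterior, the fast muscle at the front of the shin, after 50 eccentric contractions, in which the active muscle is stretched, and 12 h of recovery. All mice were on the 129/SVE background. The 4 groups were wild-type mice of 7 to 9 weeks (WT_Adult, 5 arrays) and of 12 to 14 months (WT_Aged, 5 arrays), and Des(-/-) mice, which lack the muscle intermediate filament protein desmin, of the same ages (KO_Adult, 5 arrays, and KO_Aged, 4 arrays). Every group was exercised and no resting muscle was analysed here, so each difference is between exercised muscles. The deletion is present in the whole animal, and the labels do not say whether arrays came from separate mice, so the p-values describe differences relative to the scatter among arrays, which may be technical. Des itself read 89.3 to 913 on the knockout arrays and 10945 to 18935 on the wild-type arrays. The 11 measured markers of fast fibres were bright on every array, with a summed signal of 261924 to 284303.

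The arrays differed in one technical respect that cut across the groups. Poly-A control transcripts are bacterial RNAs that may be added to a sample before labelling. Their dap probe set read 1184 to 3103 on all 5 WT_Aged arrays and on KO_Adult arrays 3, 4 and 5, and 1 to 17.4 on the other 11 arrays. The 8 arrays are called control-positive here and the 11 control-negative. WT_Aged and WT_Adult share no control status, nor do WT_Aged and KO_Aged, so in those comparisons group and status cannot be told apart except through the KO_Adult arrays, which hold both. On KO_Aged arrays 2 and 3 the Gapdh control probe set at the 3' end of the transcript read 8.61 and 5.01 times the one at the 5' end, against 0.766 to 0.968 on the other arrays. The calls that ended when both of those arrays were left out are given below.

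Glycolysis turns glucose or glycogen into pyruvate and yields ATP without oxygen, and fast fibres lean on it during short, forceful work. Glycogen phosphorylase, switched on by phosphorylase kinase when calcium rises, releases glucose units from stored glycogen, and glycogen synthase puts them back. Lactate made from pyruvate leaves glycolytic fibres mainly through the monocarboxylate transporter MCT4 and is taken up by oxidative cells mainly through MCT1.

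Values below are normalised signals on a linear scale, one per array, with arrays in the order of their replicate number, so the first 2 KO_Adult values are control-negative and the last 3 control-positive. Differences are log2 differences from a linear model over all 19 arrays, with their standard error (SE), and a gene was called at an adjusted p under 0.05. Whether a gene was called refers to the main models unless an alternative is named. Some alternatives also called Pfkm, Tpi1, Gapdh, Pgm2, Ugp2 or Gbe1 where the main models did not. Whole muscle was measured, so fewer cells of a type and less RNA per cell cannot be told apart.

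In KO_Adult against WT_Adult, 7 of the 31 tested genes fell and 0 rose, while 16.7% of all 7436 genes were called, 9.36% lower and 7.36% higher. The fallers were Slc16a3, Pfkl, Gpd1, Phkg1, Pkm, Pygm and Phka1. In WT_Aged against WT_Adult, 13 fell and 1 rose, against 38.9% of all genes called, 20.8% lower and 18.1% higher. In KO_Aged against WT_Aged, 9 rose and 1 fell, against 29.4% of all genes called, 16.9% higher and 12.4% lower. In KO_Aged against KO_Adult, Pkm, Ldhb and Pygm rose and 0 fell, against 7.41% of all genes called, 3.7% higher and 3.71% lower. The age difference was more positive in the knockout than in the wild type for 9 genes and less positive for 0, against 25.1% of all genes called for this interaction, 14.3% more positive and 10.8% less. The median difference of the tested genes was -0.23, -0.19, 0.13 and 0.05 in these 4 pairwise comparisons and that of all genes 0.04, -0.03, 0.07 and 0.03.

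**Figure D1:**
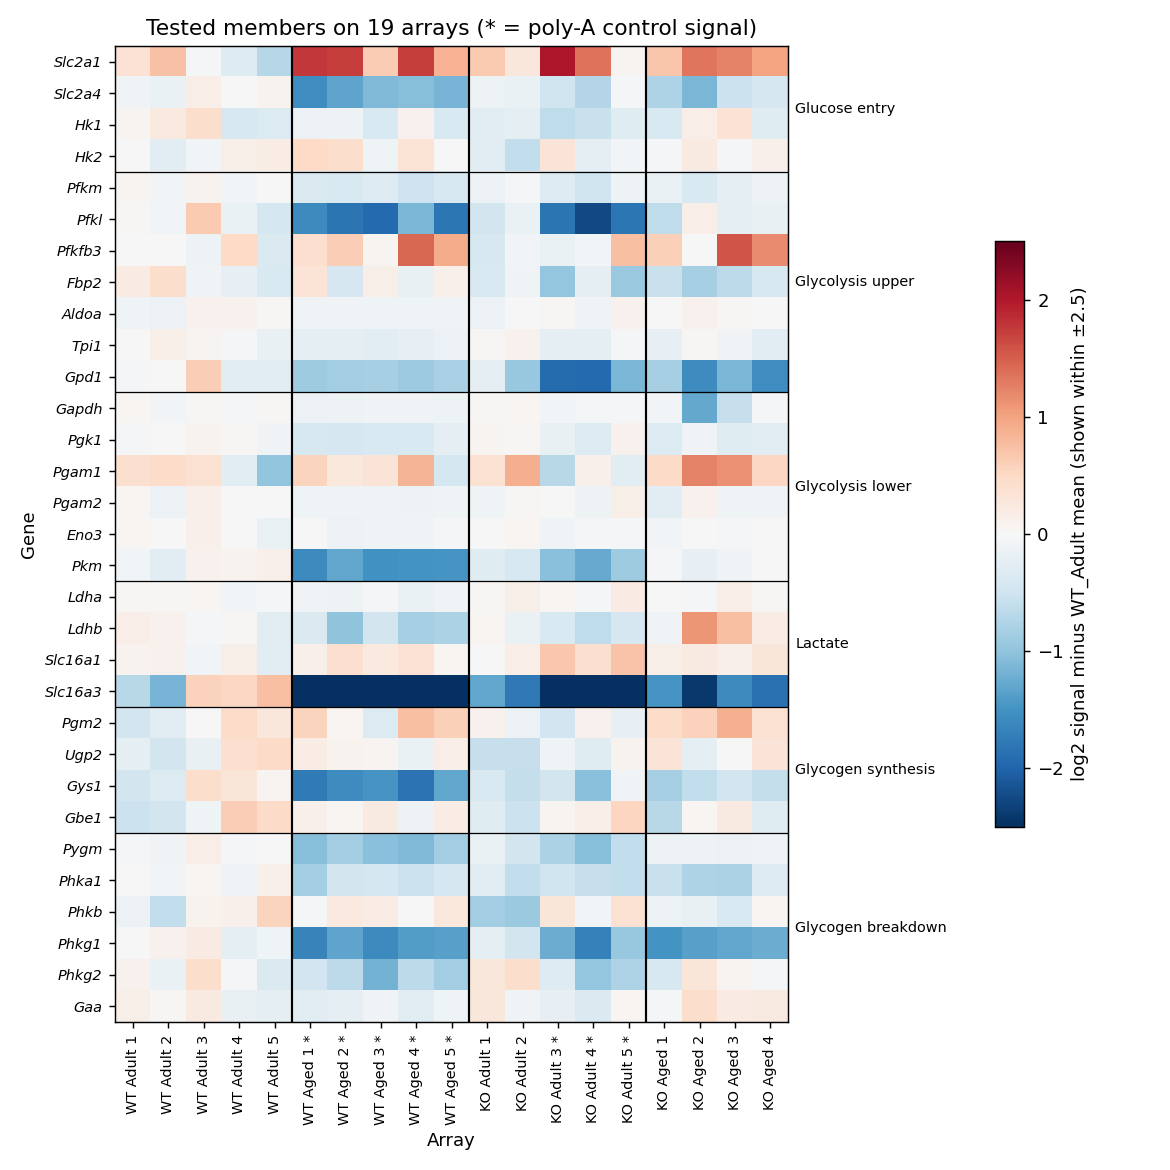
The 31 tested genes (rows, grouped by role) on 19 arrays (columns, grouped by label, with a star for control-positive arrays), coloured by the log2 signal minus the mean of the WT_Adult arrays. Slc16a3, Pfkl, Pkm and Pygm are lowest on the starred WT_Aged and KO_Adult arrays, and Slc16a3 is also low on the unstarred knockout arrays. Phkg1 is low on the starred arrays and as low on the unstarred KO_Aged arrays. Aldoa, Tpi1, Pgam2, Eno3 and Ldha stay near 0 throughout.

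Control status was also compared directly inside the KO_Adult group, where genotype and age are the same. Control-positive against control-negative KO_Adult arrays gave 7 lower and 2 higher of 31, against 26.3% of all genes called, 12.9% lower and 13.4% higher; 18 of 31 (58.1%) did not overlap between these few arrays, against 61.2% of all genes. With 3 against 2 arrays, leaving out KO_Adult 1 reduced the 9 calls to 3 and leaving out KO_Adult 2 reduced them to 4. For 5 of the 31 genes, Slc16a3, Pkm, Pygm, Pfkl and Ldhb, all 8 control-positive arrays read below all 11 control-negative ones, which held for 2.9% of all genes, and for 0 of 31 they all read above, against 2.19%. With status as a term in the model the counts were 2 lower for KO_Adult against WT_Adult (6.67% of all genes called), 1 lower for KO_Aged against WT_Aged (5.49%, of which 2.54% lower), 1 lower for KO_Aged against KO_Adult (9.98%), 0 for WT_Aged against WT_Adult (0.0941%, of which 0.0672% higher) and 0 for the interaction (0.0269%). For those last 2 comparisons limma gave 7 and 5 of the 31 genes an unadjusted p under 0.05. Comparisons between groups are therefore given below beside comparisons at matched status. For KO_Adult against WT_Adult and KO_Aged against KO_Adult, the values at matched status are the same as those with the term.

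The transporters came first in the order of the pathway. Slc2a4 encodes GLUT4, the glucose transporter that insulin and contraction bring to the fibre surface. It read 6744, 6458, 8077, 7237 and 7655 on the WT_Adult arrays, 2455, 2871, 3373, 3438 and 3205 on WT_Aged, 6597, 6429, 5106, 4356 and 7080 on KO_Adult and 4222, 3251, 4942 and 5382 on KO_Aged. The WT_Aged arrays lay below every adult array of either genotype, and KO_Aged lay below every WT_Adult array and overlapped WT_Aged at KO_Aged 2. Slc2a4 fell in WT_Aged against WT_Adult by 1.24 on the log2 scale (SE 0.16, adjusted p = 5.55e-05). At matched status, the control-positive KO_Adult arrays read 0.83 higher than WT_Aged (SE 0.18, adjusted p = 0.0097) with no overlap, and KO_Aged read -0.72 against WT_Adult (SE 0.17, adjusted p = 0.00385), also with no overlap. The first of these was 0.63 with adjusted p = 0.0901 without KO_Adult 5. Its rise in KO_Aged against WT_Aged, 0.52 (SE 0.17, adjusted p = 0.031), rested on overlapping groups, held when each array was left out in 15 of 19 fits (without KO_Aged 4 adjusted p = 0.103), and turned to -0.15 (adjusted p = 0.833) when all its probe sets were averaged. Averaging also gave 0.82 (adjusted p = 0.318) for the difference between control-positive KO_Adult and WT_Aged.

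Slc2a1 encodes GLUT1, the transporter for basal glucose entry, which endothelial and blood cells also carry. It read 979, 1272, 739, 609 and 467 on WT_Adult, 2614, 2543, 1192, 2547 and 1397 on WT_Aged, 1206, 937, 3111, 1962 and 804 on KO_Adult and 1249, 1931, 1806 and 1518 on KO_Aged. The 2 wild-type groups overlapped at 1 array, WT_Aged 3, and the control-positive KO_Adult arrays spread over the range of all groups. It was the only one of the 31 genes that rose in WT_Aged against WT_Adult, by 1.34 (SE 0.35, adjusted p = 0.00653). At matched status it rose in KO_Aged against WT_Adult by 1.06 (SE 0.36, adjusted p = 0.0313), a call kept in 13 of 19 leave-one-out fits and lost without KO_Aged 2 (adjusted p = 0.0754), with probe sets averaged (0.79, adjusted p = 0.0772) or with array weights (0.72, adjusted p = 0.196). On the probe sets used, Hk1 and Hk2, the hexokinases that trap glucose in the cell, were called in no comparison. Hk2 read 4936 to 10566 and Hk1 211 to 449 over all arrays. A second Hk1 probe set, dim at 2.41 to 164, gave -1.95 in KO_Adult and -1.71 in WT_Aged against WT_Adult. With probe sets averaged Hk1 fell in both (-1.18, adjusted p = 0.0216, and -0.95, adjusted p = 0.0306). The interaction was then called too (1.43, adjusted p = 0.038).

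Pfkl and Pfkm are the liver and muscle subunits of phosphofructokinase, the main control point of glycolysis. Pfkl read 299, 281, 464, 262 and 215 on WT_Adult, 94.5, 79.3, 73.0, 130 and 81.1 on WT_Aged, 211, 260, 79.6, 58.0 and 80.8 on KO_Adult and 189, 332, 247 and 260 on KO_Aged. Its values fell into a low set, the 8 control-positive arrays, and a high set, the 11 others, with no array between. The low set was dim, so the size of the split is uncertain. Pfkl fell in WT_Aged against WT_Adult (-1.66, SE 0.33, adjusted p = 0.00128) and in KO_Adult against WT_Adult (-1.30, SE 0.33, adjusted p = 0.0124), and rose in KO_Aged against WT_Aged (1.44, SE 0.35, adjusted p = 0.00522). At matched status it was -0.32 (SE 0.27) for KO_Adult against WT_Adult, -0.22 (SE 0.22) for KO_Aged against WT_Adult and -0.30 (SE 0.24) for KO_Adult against WT_Aged, none called. Inside KO_Adult the control-positive arrays were -1.64 (SE 0.29, adjusted p = 0.00202), a call kept in all 19 leave-one-out fits.

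Pfkm moved less. It read 23668, 21782, 24128, 21651 and 22435 on WT_Adult, 17679, 17540, 18088, 15821 and 17188 on WT_Aged, 20647, 22091, 18120, 16126 and 20715 on KO_Adult and 20226, 17467, 19534 and 20836 on KO_Aged. The WT_Aged arrays all lay below the WT_Adult arrays, a fall of 0.40 on the log2 scale (SE 0.11, adjusted p = 0.0102). None of the other comparisons of Pfkm was called in the main models, with or without matched status. Its interaction was called with array weights (0.51, adjusted p = 0.00579), a trended, robust variance (0.40, adjusted p = 0.0156) or no normalisation (0.65, adjusted p = 0.0331). Array weights also called KO_Adult against WT_Adult (-0.31, adjusted p = 0.011), and the trended variance KO_Aged against WT_Adult (-0.22, adjusted p = 0.029).

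Among the other enzymes of upper glycolysis, Fbp2, the muscle fructose bisphosphatase that runs the phosphofructokinase step backwards, ranged over 885 to 1571 on WT_Adult, 862 to 1450 on WT_Aged, 586 to 1085 on KO_Adult and 646 to 865 on KO_Aged. It was lower in KO_Aged than in WT_Aged (-0.62, SE 0.21, adjusted p = 0.0382) and than in WT_Adult (-0.61, SE 0.20, adjusted p = 0.0276), and in control-positive KO_Adult than in WT_Aged (-0.71, adjusted p = 0.04995). Leaving out single arrays ended these calls in 6, 4 and 14 of 19 fits. Pfkfb3, which makes the phosphofructokinase activator fructose 2,6-bisphosphate, rose at matched status in KO_Aged against WT_Adult (0.84, SE 0.31, adjusted p = 0.04894), a call kept in 5 of 19 leave-one-out fits and lost, for example, without KO_Aged 3 (0.59, adjusted p = 0.178), and at 0.15 (adjusted p = 0.647) with its probe sets averaged. Aldoa and Tpi1, which split the sugar and interconvert its products, were called in no comparison. Aldoa held the top ranks of the array, where quantile normalisation gave several arrays the same value, so small differences of it are hardly resolved.

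Gpd1, the cytosolic glycerol-3-phosphate dehydrogenase, draws a glycolytic intermediate toward glycerol phosphate and regenerates NAD. It read 2888, 3015, 4581, 2456 and 2470 on WT_Adult, 1626, 1628, 1677, 1587 and 1699 on WT_Aged, 2563, 1550, 792, 772 and 1353 on KO_Adult and 1687, 1005, 1364 and 1023 on KO_Aged. All WT_Aged and KO_Aged arrays lay below all WT_Adult arrays, and the lowest values were control-positive KO_Adult arrays. Gpd1 fell in KO_Adult against WT_Adult (-1.24, SE 0.27, adjusted p = 0.00467) and in WT_Aged against WT_Adult (-0.87, SE 0.27, adjusted p = 0.018). The second was lost without WT_Adult 3 (adjusted p = 0.0582) and with probe sets averaged (-0.49, adjusted p = 0.155). At matched status it was lower in both knockout groups that could be set against a wild-type group of the other age. KO_Aged against WT_Adult gave -1.27 (SE 0.22, adjusted p = 0.000504), kept in all 19 leave-one-out fits. Control-positive KO_Adult against WT_Aged gave -0.80 (SE 0.24, adjusted p = 0.0419), lost without KO_Adult 3 (-0.68, adjusted p = 0.174) and kept in 10 of 19 fits. KO_Adult against WT_Adult without controls gave -0.59 (SE 0.27, adjusted p = 0.2). Gpd1 was the only gene of the 31 called with status as a term for KO_Aged against WT_Aged (-1.49, SE 0.37, adjusted p = 0.031). Without the term that difference was -0.40 (SE 0.29, adjusted p = 0.3). The term rests on the split by status inside KO_Adult, which was -1.08 (SE 0.30, adjusted p = 0.0165). That split was -0.72 without KO_Adult 1.

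**Figure D2:**
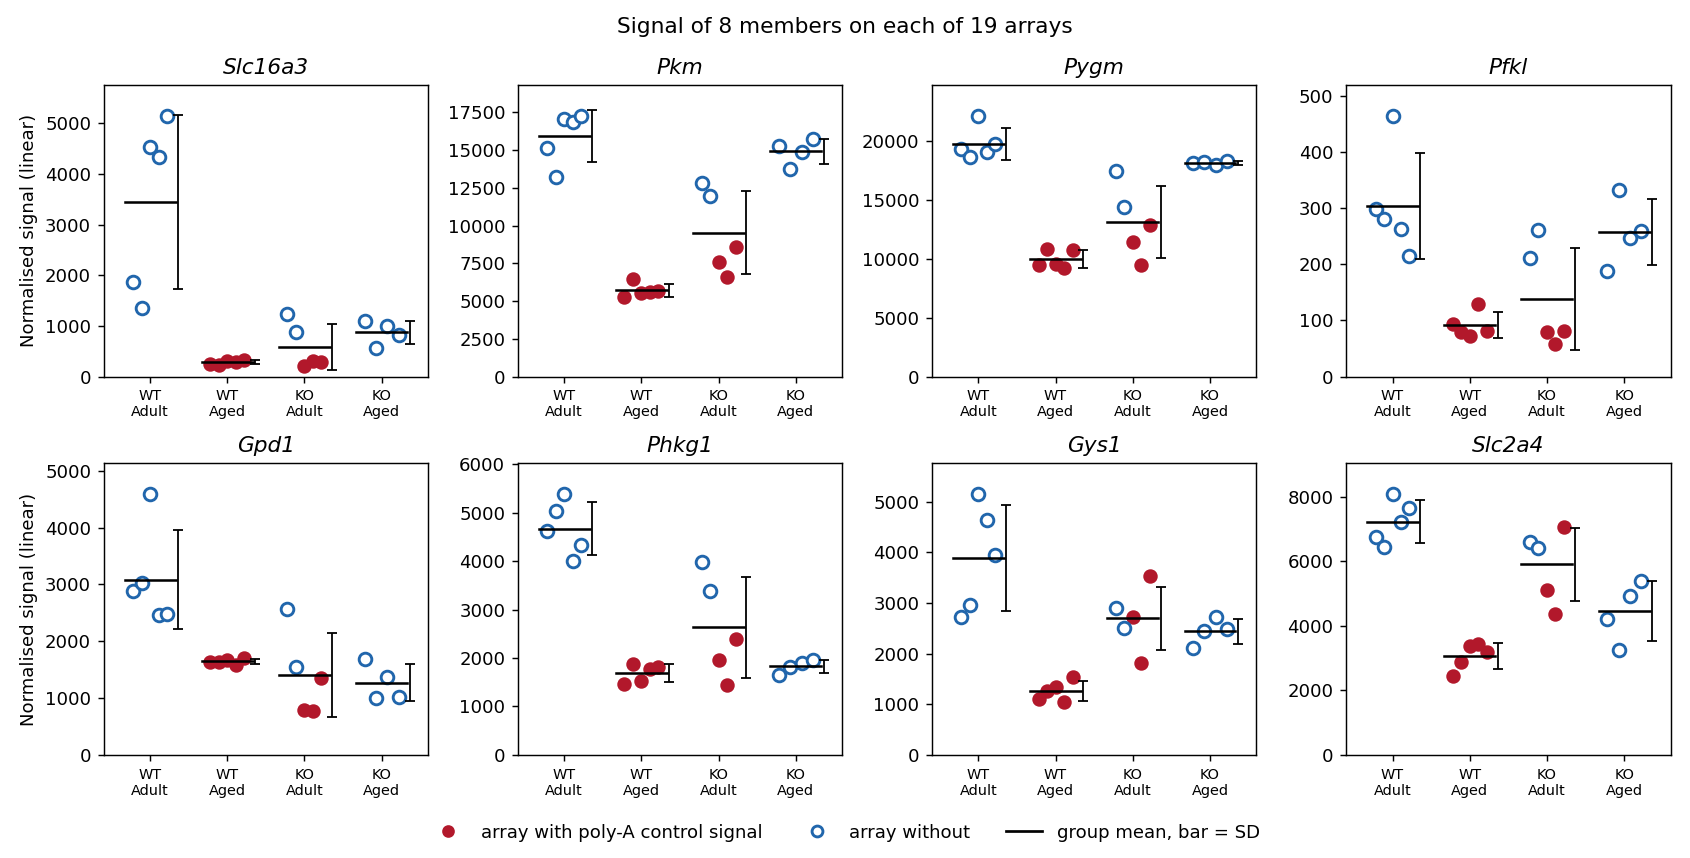
Normalised signal (linear axes from 0) of 8 genes on each array, by group; filled red points are control-positive arrays, open blue points control-negative ones, lines are group means and bars SD. For Pfkl the red points lie at 58.0 to 130 and the blue points at 189 to 464, while for Gys1 and Slc2a4 the red KO_Adult points lie above all WT_Aged points.

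Of the 6 tested genes of lower glycolysis, from glyceraldehyde phosphate to pyruvate, Pgk1, Pgam1 and Pkm were called in at least 1 comparison and Gapdh, Pgam2 and Eno3 in none. Pgam2, the muscle phosphoglycerate mutase, read 14932 to 20384 over all arrays, Eno3, the muscle enolase, 24522 to 29898. Pgam2 was the only one of the genes with a match to the MEF2 site, the A/T-rich element bound by a muscle transcription factor, near its start. RefSeq (GRCm38.p6) places the 250 bases before that start at chr11:5803797-5804046, minus strand, and they are shown with the match in capitals.
Pgam2: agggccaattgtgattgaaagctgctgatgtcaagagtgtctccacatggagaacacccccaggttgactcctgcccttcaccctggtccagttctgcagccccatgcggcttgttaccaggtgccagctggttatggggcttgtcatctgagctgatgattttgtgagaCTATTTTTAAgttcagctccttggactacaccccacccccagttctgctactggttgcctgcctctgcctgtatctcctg
Pgam1, the mutase of most other tissues, read 181 to 870 and rose at matched status in KO_Aged against WT_Adult (0.85, SE 0.31, adjusted p = 0.04423; without the KO_Aged arrays with a high Gapdh ratio 0.50, adjusted p = 0.347). Gapdh could be read only through control probe sets. Its middle probe set read 10474 and 17078 on KO_Aged arrays 2 and 3 against 22971 to 26565 on the rest.

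Pgk1, the first ATP-making enzyme of glycolysis, read 15320, 15653, 16530, 15988 and 14755 on WT_Adult, 11883, 11633, 12066, 11932 and 13216 on WT_Aged, 16292, 15988, 13766, 12306 and 16790 on KO_Adult and 12363, 14649, 12688 and 13066 on KO_Aged. The wild-type groups did not overlap, and Pgk1 fell with age in them by 0.37 on the log2 scale (SE 0.11, adjusted p = 0.0163). Averaging its probe sets gave -0.26 (adjusted p = 0.23). At matched status Pgk1 was not called, with 0.05 (SE 0.14) in KO_Adult and -0.25 (SE 0.11, adjusted p = 0.0985) in KO_Aged against WT_Adult and 0.22 (SE 0.12, adjusted p = 0.268) in KO_Adult against WT_Aged.

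Pkm, the pyruvate kinase of muscle and the last step of the pathway, separated the arrays most evenly. It read 15159, 13194, 17046, 16836 and 17237 on WT_Adult, 5266, 6458, 5503, 5612 and 5663 on WT_Aged, 12836, 11980, 7614, 6574 and 8558 on KO_Adult and 15247, 13766, 14898 and 15740 on KO_Aged. No pair of groups overlapped except WT_Adult and KO_Aged, and within KO_Adult the control-negative arrays lay above the control-positive ones. Pkm fell in KO_Adult (-0.78, SE 0.16, adjusted p = 0.00339) and in WT_Aged (-1.47, SE 0.16, adjusted p = 1.96e-05) against WT_Adult, and rose in KO_Aged against WT_Aged (1.39, SE 0.17, adjusted p = 2.55e-05). These calls held in every leave-one-out fit. Its rise in KO_Aged against KO_Adult (0.69, SE 0.17, adjusted p = 0.0221) was kept in 15 of 19 fits, and at matched status it was 0.26 (SE 0.15, adjusted p = 0.263). At matched status Pkm was -0.35 (SE 0.15, adjusted p = 0.162) in KO_Adult against WT_Adult, -0.09 (SE 0.12) in KO_Aged against WT_Adult and 0.41 (SE 0.13, adjusted p = 0.058) in KO_Adult against WT_Aged.

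Lactate export gave the largest pairwise differences among the 31 genes. Slc16a3 encodes MCT4, the exporter of glycolytic fibres. Its upstream sequence is shown beside that of Slc16a1, which encodes MCT1, because the 2 transporters behaved differently; both are 250 bases before the RefSeq start (GRCm38.p6), plus strand, with ACGTG or GCGTG on either strand in capitals. ACGTG and GCGTG are forms of the core that hypoxia-inducible factors bind. The windows are chr11:120948817-120949066 for Slc16a3 and chr3:104638414-104638663 for Slc16a1, where the capitals CACGTG hold ACGTG on both strands.
Slc16a3: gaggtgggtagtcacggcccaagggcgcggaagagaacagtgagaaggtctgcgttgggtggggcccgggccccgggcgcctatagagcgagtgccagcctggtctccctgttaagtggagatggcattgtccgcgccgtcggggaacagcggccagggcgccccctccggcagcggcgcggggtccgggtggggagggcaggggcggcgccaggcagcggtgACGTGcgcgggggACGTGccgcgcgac
Slc16a1: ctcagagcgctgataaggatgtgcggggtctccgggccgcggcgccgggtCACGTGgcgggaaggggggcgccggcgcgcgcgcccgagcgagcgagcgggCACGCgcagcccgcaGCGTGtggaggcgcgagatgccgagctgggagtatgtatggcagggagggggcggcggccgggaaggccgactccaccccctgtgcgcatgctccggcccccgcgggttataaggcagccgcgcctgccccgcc
A match is a description of the letters only and was not tested as a binding site.

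Slc16a3 read 1863, 1362, 4540, 4340 and 5140 on WT_Adult, 251, 226, 308, 290 and 325 on WT_Aged, 1237, 882, 214, 311 and 286 on KO_Adult and 1092, 568, 998 and 829 on KO_Aged. Every WT_Adult array lay above every array of the other groups, the 8 control-positive arrays were lowest, and the control-negative knockout arrays of both ages lay between. Within WT_Adult, arrays 1 and 2 were well below the other 3, and those 3 share the first 4 characters of the code in their sample titles; what the code stands for is not stated. Slc16a3 fell in KO_Adult (-2.70, SE 0.44, adjusted p = 0.00059) and WT_Aged (-3.43, SE 0.44, adjusted p = 4.49e-05) against WT_Adult and rose in KO_Aged against WT_Aged (1.59, SE 0.46, adjusted p = 0.0158), each in all 19 leave-one-out fits. The rise was not called without KO_Aged arrays 2 and 3 together (1.76, SE 0.60, adjusted p = 0.0594). At matched status the fall remained: KO_Adult against WT_Adult gave -1.53 (SE 0.41, adjusted p = 0.0346) and KO_Aged against WT_Adult -1.84 (SE 0.33, adjusted p = 0.000649), both without overlap. The second held in all 19 leave-one-out fits. The first rests on 2 knockout arrays and was kept in 14 of 19 fits, with -1.29 (adjusted p = 0.406) without KO_Adult 2 and -0.99 (adjusted p = 0.0597) with array weights. Among control-positive arrays KO_Adult and WT_Aged differed by -0.06 (SE 0.36), and among control-negative ones KO_Aged and KO_Adult by -0.30 (SE 0.43).

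Slc16a1 read 2813, 2828, 2510, 2893 and 2174 on WT_Adult, 2854, 3514, 3111, 3361 and 2712 on WT_Aged, 2620, 2958, 4222, 3465 and 4294 on KO_Adult and 2903, 3081, 2882 and 3231 on KO_Aged. Every pair of groups overlapped, and its highest 2 values were control-positive KO_Adult arrays. It was called in none of the 4 pairwise comparisons, with 0.39 (SE 0.15, adjusted p = 0.0742) for KO_Adult against WT_Adult, a difference that was called when arrays were only centred on their medians (0.70, adjusted p = 0.0191) or left as deposited (0.45, adjusted p = 0.0427). It was higher on the control-positive than the control-negative KO_Adult arrays (0.51, SE 0.17, adjusted p = 0.0351; 0.195 without KO_Adult 1, and 0.128 under median centring).

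Ldhb, the lactate dehydrogenase subunit typical of oxidative fibres and heart, read 3434, 3324, 3015, 3153 and 2544 on WT_Adult, 2385, 1521, 2241, 1720 and 1785 on WT_Aged, 3199, 2758, 2366, 1982 and 2312 on KO_Adult and 2888, 6605, 5209 and 3492 on KO_Aged. KO_Aged lay wholly above WT_Aged, and its highest values were on arrays 2 and 3, those with the high Gapdh ratio. Ldhb rose in KO_Aged against WT_Aged by 1.18 (SE 0.22, adjusted p = 0.000647) and fell in WT_Aged against WT_Adult by 0.69 on the log2 scale (SE 0.20, adjusted p = 0.0135), both in all 19 leave-one-out fits. Without the 2 arrays the rise was 0.74 (SE 0.21, adjusted p = 0.0277). Its rise in KO_Aged against KO_Adult (0.79, SE 0.22, adjusted p = 0.0334) was 0.35 (adjusted p = 0.422) without the arrays with the high ratio and 0.54 (SE 0.26, adjusted p = 0.181) at matched status. KO_Aged against WT_Adult, both control-negative, gave 0.49 (SE 0.21, adjusted p = 0.0801). All 4 Ldhb probe sets rose in KO_Aged against WT_Aged, by 0.99 to 1.28. Ldha, the subunit of fast fibres, read 18544 to 23800 and was called in no comparison.

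Markers of slow fibres were also higher in KO_Aged than in WT_Aged. These groups also differ in control status, and KO_Aged includes the arrays with the high Gapdh ratio. In KO_Aged against WT_Aged 8 of the 10 slow fibre markers rose and 0 fell, with a median difference of 3.03, against 29.4% of all genes called. Their summed signal was 27347 to 42106 on the KO_Aged arrays and 6074 to 11656 on the WT_Aged arrays. On adult arrays it was 14961 to 23562 without desmin and 9767 to 17642 in the wild type. Ldhb was -0.31 in KO_Adult against WT_Adult (adjusted p = 0.313), and -0.05 (SE 0.26, adjusted p = 0.921) at matched status. No slow marker was at 0; the dimmest value was 15.8, for Myh7. Of 11 fast fibre markers, 1 rose and 0 fell in that comparison. The part of these markers in the Ldhb values was not tested.

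In glycogen synthesis, Gys1, the muscle glycogen synthase, carried the differences. It read 2731, 2963, 5145, 4644 and 3946 on WT_Adult, 1111, 1257, 1349, 1039 and 1532 on WT_Aged, 2893, 2499, 2733, 1818 and 3541 on KO_Adult and 2116, 2448, 2721 and 2493 on KO_Aged. On the probe set used, every WT_Aged array lay below every array of the other 3 groups. Control status made no visible split within KO_Adult there, unlike on the second probe set given below. Gys1 fell in WT_Aged against WT_Adult by 1.59 on the log2 scale (SE 0.19, adjusted p = 3.5e-05) and rose in KO_Aged against WT_Aged by 0.96 (SE 0.21, adjusted p = 0.00209), both in all 19 leave-one-out fits. With control status as a term the difference between the wild-type ages was -1.55 (SE 0.34, adjusted p = 0.112). At matched status it was 1.06 higher in KO_Adult than in WT_Aged (SE 0.23, adjusted p = 0.00771), or 0.84 (adjusted p = 0.076) without KO_Adult 5, and lower in KO_Aged than in WT_Adult (-0.63, SE 0.21, adjusted p = 0.0282), a call kept in 15 of 19 leave-one-out fits (-0.52, adjusted p = 0.0747 without WT_Adult 3; -0.36, adjusted p = 0.217 with array weights).

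A second Gys1 probe set gave other values. It split KO_Adult by control status, with 2092 and 2196 on the control-negative arrays and 202 to 267 on the control-positive ones. WT_Aged read 132 to 245, so it overlapped the control-positive KO_Adult arrays there. The control-negative KO_Aged arrays 2 and 3 read lower still, 91.0 and 98.1. Averaging both probe sets put Gys1 lower on control-positive than on control-negative KO_Adult arrays (-1.59, SE 0.41, adjusted p = 0.0116). With both probe sets averaged, the Gys1 difference between control-positive KO_Adult and WT_Aged was 0.78 (adjusted p = 0.159) and that between KO_Aged and WT_Aged 0.86 (adjusted p = 0.118). Slc2a4 also had probe sets that disagreed: its second probe set read 53.8 and 117 on KO_Aged arrays 2 and 3, and gave -0.82 in KO_Aged against WT_Aged where the one used gave 0.52. Of 10 genes with several probe sets that were called in a pairwise group comparison, 7 had all probe sets in the direction of the one used. The exceptions were Slc2a4, Pgk1, with 0.13 from another probe set in WT_Aged against WT_Adult, and Gpd1. For Gpd1 the 4 probe sets ran from -2.24 to 0.93 in that comparison and from -1.98 to 0.0036 in KO_Adult against WT_Adult. Pgm2, listed with glycogen synthesis, Ugp2, which makes the sugar nucleotide for glycogen, and the branching enzyme Gbe1 were called in no comparison. Gbe1 read 1034 to 2562 over all arrays. Pgm2 read only 67.2 to 182, against 3674 to 8514 for Pgm1, given below among the further genes.

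**Figure D3:**
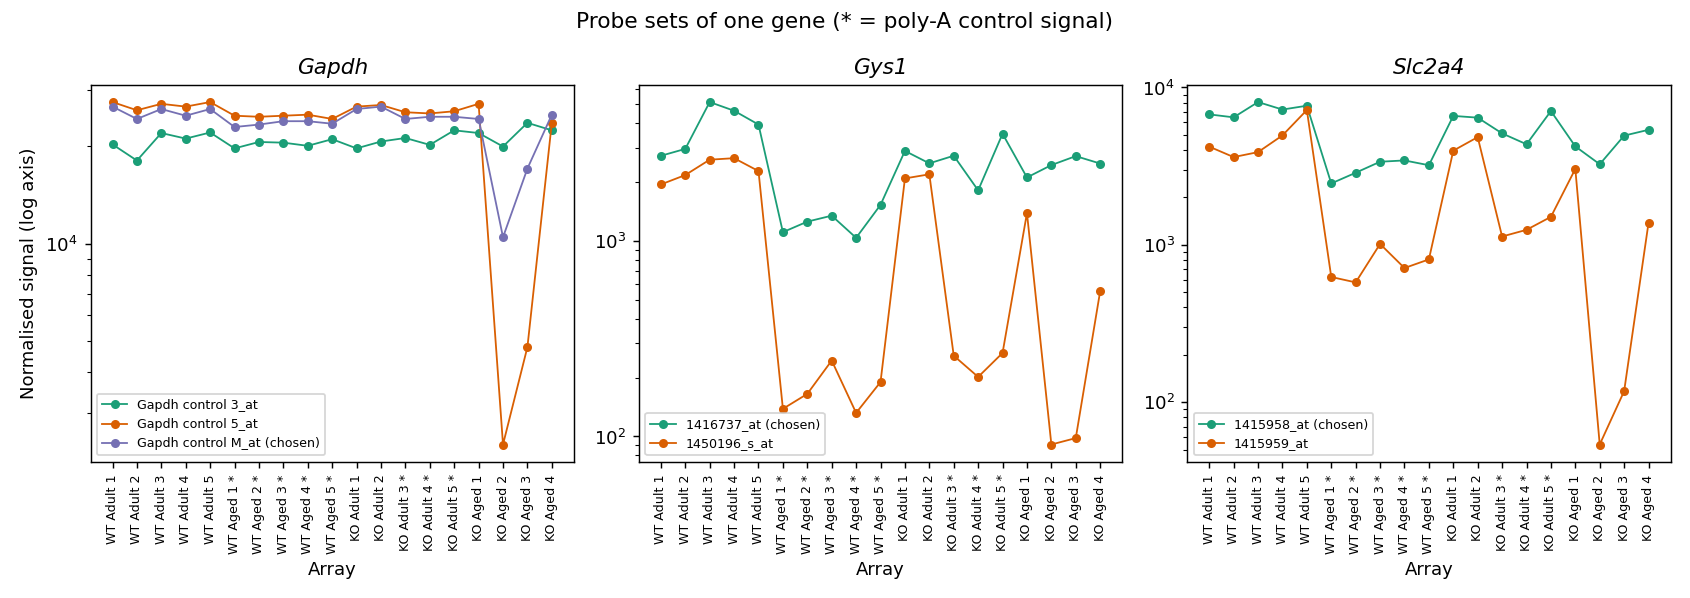
Normalised signal (log axes) of each probe set of Gapdh, Gys1 and Slc2a4 on the 19 arrays; a star marks control-positive arrays. The 5' Gapdh set and the second sets of Gys1 and Slc2a4 drop on KO_Aged arrays 2 and 3, to 91.0 and 98.1 for Gys1, while the Gapdh 3' set does not.

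Glycogen breakdown held the most genes that changed. Pygm, the muscle glycogen phosphorylase whose loss causes McArdle disease, has its RefSeq upstream window at chr19:6384158-6384407, plus strand, shown because the gene moved with Slc16a3 across control status; capitals mark ACGTG or GCGTG on either strand.
Pygm: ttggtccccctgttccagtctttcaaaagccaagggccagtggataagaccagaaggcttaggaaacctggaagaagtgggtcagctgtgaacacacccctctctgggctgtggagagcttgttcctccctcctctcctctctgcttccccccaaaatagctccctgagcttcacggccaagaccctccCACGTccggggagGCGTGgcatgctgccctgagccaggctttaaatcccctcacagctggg
It read 19345, 18614, 22091, 19052 and 19726 on WT_Adult, 9488, 10823, 9542, 9229 and 10776 on WT_Aged, 17467, 14360, 11419, 9488 and 12876 on KO_Adult and 18088, 18175, 17923 and 18308 on KO_Aged. WT_Adult was highest and WT_Aged lowest as a group, and only WT_Aged and KO_Adult overlapped. Pygm fell in KO_Adult (-0.62, SE 0.14, adjusted p = 0.00568) and WT_Aged (-0.99, SE 0.14, adjusted p = 8.91e-05) against WT_Adult and rose in KO_Aged against WT_Aged (0.86, SE 0.15, adjusted p = 0.000344), in all 19 leave-one-out fits. Its rise in KO_Aged against KO_Adult (0.50, SE 0.15, adjusted p = 0.0466) was kept in 3 of 19. At matched status it was -0.32 (SE 0.15, adjusted p = 0.193) in KO_Adult and -0.12 (SE 0.12, adjusted p = 0.453) in KO_Aged against WT_Adult.

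Phosphorylase kinase, which activates Pygm, has regulatory alpha and beta subunits and a catalytic gamma subunit. Phkg1, the muscle gamma subunit, read 4623, 5033, 5376, 3995 and 4340 on WT_Adult, 1454, 1872, 1532, 1768 and 1811 on WT_Aged, 3981, 3385, 1961, 1435 and 2394 on KO_Adult and 1653, 1821, 1892 and 1967 on KO_Aged. WT_Adult lay above all other arrays, and the 2 control-negative KO_Adult arrays came next. Both aged groups and the control-positive KO_Adult arrays shared the low range. Phkg1 fell in KO_Adult (-0.91, SE 0.21, adjusted p = 0.00643) and WT_Aged (-1.47, SE 0.21, adjusted p = 9.71e-05) against WT_Adult. Among control-negative arrays it was lower in KO_Aged than in WT_Adult (-1.34, SE 0.15, adjusted p = 1.04e-05, in all 19 leave-one-out fits) and than in KO_Adult (-1.0, SE 0.19, adjusted p = 0.00736). The second was the only call among the 31 genes in that comparison, against 9.98% of all genes, 5.16% lower and 4.81% higher. Of the 31 genes 13 (41.9%), Phkg1 among them, did not overlap between these groups, against 36.9% of all genes. The call was lost without KO_Adult 1 (-0.89, adjusted p = 0.0906) or KO_Adult 2 (-1.12). KO_Adult against WT_Adult at matched status gave -0.34 (SE 0.18, adjusted p = 0.271).

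Phka1, the muscle alpha subunit, read 7080, 6789, 7407, 6586 and 7768 on WT_Adult, 3950, 5176, 5244, 4886 and 5346 on WT_Aged, 5819, 4671, 5003, 4745 and 4658 on KO_Adult and 4839, 4141, 4103 and 5654 on KO_Aged. The WT_Adult arrays stood above all others and the other 3 groups overlapped, without a split by control status. Phka1 fell in KO_Adult (-0.52, SE 0.13, adjusted p = 0.00949), in WT_Aged (-0.54, SE 0.13, adjusted p = 0.00356) and, both control-negative, in KO_Aged (-0.61, SE 0.13, adjusted p = 0.00215) against WT_Adult, each in all 19 leave-one-out fits. KO_Adult against WT_Adult at matched status gave -0.45 (SE 0.16, adjusted p = 0.106). Inside KO_Adult the control statuses differed by -0.12 (SE 0.18).

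Phkb, the beta subunit, ran the other way by status. The control-negative KO_Adult arrays read 3052 and 2944 and the control-positive ones 6891, 5359 and 7228, while WT_Adult ranged over 3626 to 8209, WT_Aged over 5482 to 6719 and KO_Aged over 4309 to 5742. The 2 control-negative KO_Adult arrays were the lowest of all 19. It was the second gene, with Slc16a3, that fell at matched status in KO_Adult against WT_Adult (-0.90, SE 0.23, adjusted p = 0.0288), where 2 of 31 fell and 0 rose against 6.67% of all genes called, 3.11% lower and 3.56% higher. The call was lost without KO_Adult 2 (-0.87, adjusted p = 0.291) and under median centring (-0.59, adjusted p = 0.134).

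Phkg2, the gamma subunit of liver and testis, read 231, 191, 295, 210 and 166 on WT_Adult, 152, 134, 92.5, 134 and 115 on WT_Aged, 264, 292, 170, 108 and 123 on KO_Adult and 162, 265, 226 and 208 on KO_Aged. WT_Aged lay below both control-negative groups, and the control-positive KO_Adult arrays lay near or in its range. It fell in WT_Aged against WT_Adult (-0.77, SE 0.25, adjusted p = 0.0206; 0.0626 without WT_Adult 3) and rose in KO_Aged against WT_Aged (0.75, SE 0.26, adjusted p = 0.0379), a rise kept in 12 of 19 leave-one-out fits. Matched by status it was 0.37 (SE 0.24) in KO_Adult and -0.02 (SE 0.19) in KO_Aged against WT_Adult and 0.08 (SE 0.21) in KO_Adult against WT_Aged, none called, while inside KO_Adult the control-positive arrays were lower (-1.06, SE 0.26, adjusted p = 0.00957).

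Gaa, the lysosomal glucosidase deficient in Pompe disease, read 1621, 1502, 1715, 1298 and 1263 on WT_Adult, 1210, 1232, 1377, 1231 and 1358 on WT_Aged, 1786, 1387, 1271, 1140 and 1530 on KO_Adult and 1429, 1986, 1703 and 1716 on KO_Aged. KO_Aged lay above WT_Aged and overlapped both adult groups. Its rise in KO_Aged against WT_Aged (0.41, SE 0.15, adjusted p = 0.0457) was kept in 7 of 19 leave-one-out fits. With status matched it was 0.10 (SE 0.17) in KO_Adult and 0.21 (SE 0.14) in KO_Aged against WT_Adult and 0.03 (SE 0.15) in KO_Adult against WT_Aged, none called. A second Gaa probe set read 1419 to 2021 on WT_Adult and 697 to 837 on WT_Aged, with no overlap. It read 1632 and 1238 on control-negative and 897, 1016 and 1090 on control-positive KO_Adult arrays. With probe sets averaged Gaa fell in WT_Aged against WT_Adult (-0.65, SE 0.14, adjusted p = 0.00223), where control status also differs. The interaction was then 0.85 (adjusted p = 0.00735).

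The genotype by age interaction, the knockout age difference minus the wild-type one, was called for Slc16a3 (4.30, SE 0.64, adjusted p = 0.000228), Pfkl (2.75, SE 0.48, adjusted p = 0.000811), Pkm (2.17, SE 0.24, adjusted p = 5.11e-05), Ldhb (1.48), Pygm (1.48), Gys1 (1.48), Phkg1 (1.04), Phkg2 (1.02) and Slc2a4 (0.83). All of these except Phkg2 were kept in all 19 leave-one-out fits, and Phkg2 in 5 (0.91, adjusted p = 0.0916 without KO_Aged 2). Under median centring Slc2a4 (0.39, adjusted p = 0.273), Phkg1 (0.67, adjusted p = 0.18) and Phkg2 (0.97, adjusted p = 0.0619) were not called, nor was Slc2a4 with probe sets averaged (0.57, adjusted p = 0.525). With control status as a term their values were 1.18 for Slc16a3 (SE 0.85), 0.12 for Pfkl (SE 0.56), 1.02 for Pkm (SE 0.31, adjusted p = 0.204), 0.81 for Ldhb (SE 0.53), 0.68 for Pygm (SE 0.30), 1.4 for Gys1 (SE 0.53, adjusted p = 0.242), -0.49 for Phkg1 (SE 0.38), -0.67 for Phkg2 (SE 0.49) and 0.40 for Slc2a4 (SE 0.43). The Gys1 value stayed closest to its value without the term, with a wider error, and none was called.

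Without KO_Aged arrays 2 and 3, 53 of 69 calls of these genes stayed. In KO_Aged against WT_Aged 5 of 10 were lost: Slc16a3, Pfkl (1.26, adjusted p = 0.0739), Phkg2 (0.55, adjusted p = 0.301), Gaa (0.29, adjusted p = 0.32) and Fbp2 (-0.49, adjusted p = 0.262). In KO_Aged against WT_Adult 5 of 10 were lost: Slc2a1 (0.84, adjusted p = 0.191), Gys1 (-0.71, adjusted p = 0.0643), Pfkfb3 (0.89, adjusted p = 0.0634), Pgam1 and Fbp2 (-0.49, adjusted p = 0.173). All 3 rises in KO_Aged against KO_Adult were lost, with 0.75 (adjusted p = 0.0969) for Pkm and 0.50 (adjusted p = 0.191) for Pygm beside Ldhb. The interaction was no longer called for Phkg1 (1.02, adjusted p = 0.0712) and Phkg2 (0.82, adjusted p = 0.197), nor was Fbp2 in KO_Adult against WT_Aged (-0.71, adjusted p = 0.0545).

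Groups whose arrays did not overlap were counted too. Of the 31 genes, called or not, this held for 5 (16.1%) in KO_Adult against WT_Adult, where it held for 10.1% of all genes, and for 14 (45.2%) in WT_Aged against WT_Adult (29.4% of all genes). It held for 10 (32.3%) in KO_Aged against WT_Aged (31.2%) and 3 (9.68%) in KO_Aged against KO_Adult (8.15%), shares near those of all genes. At matched status it held for 8 (25.8%) in KO_Adult against WT_Adult (27.8%), 11 (35.5%) in KO_Aged against WT_Adult (19.1%) and 5 (16.1%) in KO_Adult against WT_Aged (26.4%). KO_Aged against WT_Adult, both control-negative, had 3 higher and 7 lower of 31, against 30.9% of all genes called, 15.8% higher and 15.1% lower. Control-positive KO_Adult against WT_Aged had 2 higher and 2 lower, against 9.32%, 4.57% higher and 4.75% lower. In both of these comparisons genotype and age differ together.

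**Figure D4:**
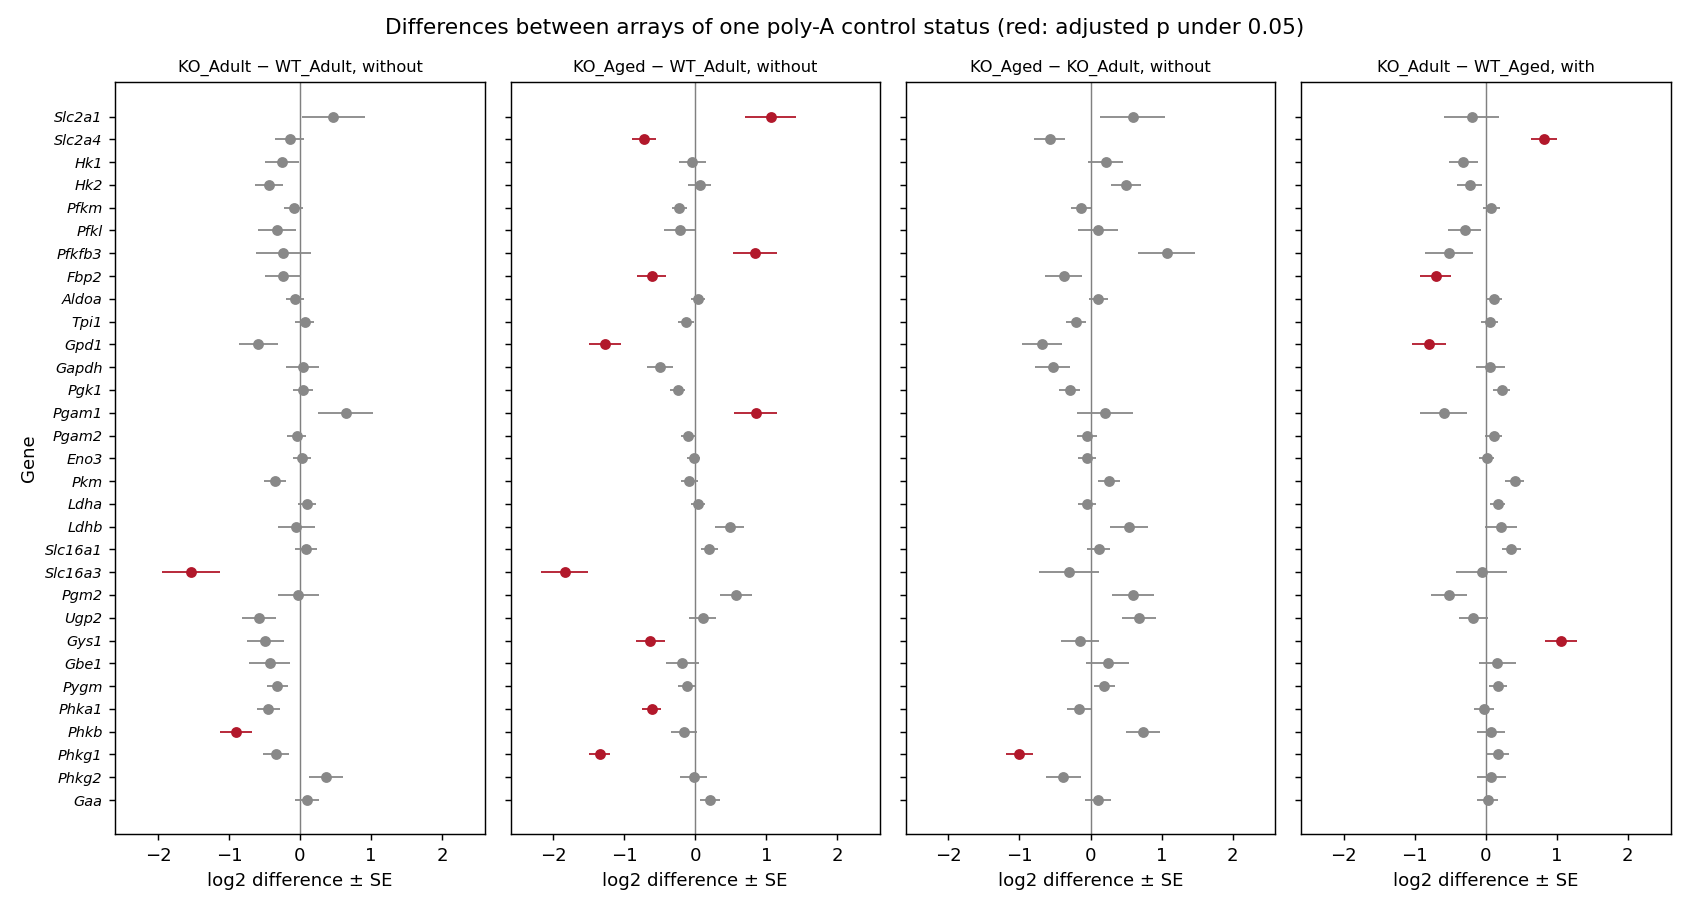
Log2 differences with SE (horizontal bars) of the 31 tested genes in 4 comparisons between arrays of one control status; red marks an adjusted p under 0.05. Slc16a3 is red in both panels that set a knockout group against WT_Adult, at -1.53 and -1.84.

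The difference between control-positive and control-negative KO_Adult arrays was set beside that between WT_Aged and WT_Adult, which uses none of the same arrays. Over the 31 genes Pearson's r was 0.76 and Spearman's rho 0.70, and 26 (83.9%) had the same sign. Over all 7436 genes r was 0.71 and rho 0.68, and 75.9% had the same sign. The genes are not independent replicates, and all values come from one normalisation. On the probe sets used, Gys1 and Slc2a4 lay off the common trend. They gave -0.05 (SE 0.28) and -0.27 (SE 0.23) inside KO_Adult against -1.59 and -1.24 between the wild-type ages. Their second probe sets split by status inside KO_Adult. That of Slc2a4 read 3967 and 4835 on control-negative and 1129, 1245 and 1506 on control-positive arrays, with -2.65 between the wild-type ages. That of Gys1 read 2092 and 2196 against 202 to 267, with -3.74 between the wild-type ages.

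**Figure D5:**
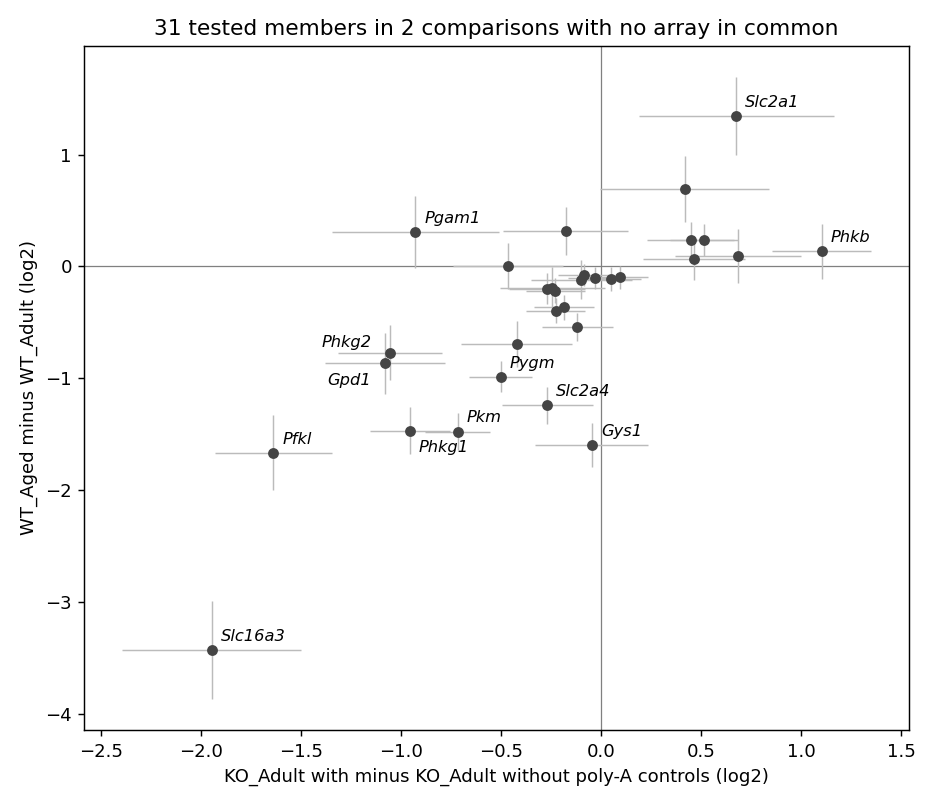
Each point is one of the 31 tested genes, with the log2 difference of control-positive minus control-negative KO_Adult arrays on the x axis and of WT_Aged minus WT_Adult on the y axis; bars are SE. Slc16a3 (-1.95, -3.43) and Pfkl (-1.64, -1.66) are far down on both axes. Gys1, on the probe set used, is low on the y axis only.

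Scaling mattered for the counts of small differences. With each array centred on its median in place of quantile normalisation, the median of all genes moved from 0.04 to 0.20 in KO_Adult against WT_Adult and from -0.03 to 0.08 in WT_Aged against WT_Adult, and from 0.03 to -0.14 in the interaction. The 31 genes then split into 2 higher and 3 lower, 2 higher and 9 lower, and 6 more positive and 1 less positive. In KO_Adult against WT_Adult, Slc16a3, Pfkl and Gpd1 were still called, and Pkm (-0.57, adjusted p = 0.0535), Pygm (-0.46, adjusted p = 0.0971), Phkg1 (-0.60, adjusted p = 0.093) and Phka1 (-0.21, adjusted p = 0.363) were not, while Slc2a1 (1.09, adjusted p = 0.0496) and Slc16a1 became called as higher. In WT_Aged against WT_Adult, Gpd1 (-0.65, adjusted p = 0.081), Ldhb (-0.50, adjusted p = 0.147), Pgk1 (-0.33, adjusted p = 0.166) and Phka1 (-0.36, adjusted p = 0.0852) were not called either. In KO_Aged against WT_Aged, Slc2a4 (0.40, adjusted p = 0.123) and Gaa (0.36, adjusted p = 0.219) were not. At matched status Gys1 (-0.46, adjusted p = 0.149) and Fbp2 (-0.47, adjusted p = 0.111) in KO_Aged against WT_Adult and Gpd1 (-0.72, adjusted p = 0.113) and Fbp2 (-0.64, adjusted p = 0.101) in KO_Adult against WT_Aged lost their calls. In KO_Aged against KO_Adult, 0 of the 3 rises stayed called and Slc2a4 fell instead (-0.66, adjusted p = 0.0388).

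Further genes of glucose entry and glycolysis were taken from a list of 26, of which 16 were measured and 10 tested. Of all genes, 16.7% were called in KO_Adult and 38.9% in WT_Aged against WT_Adult. At matched status 6.67% were called in KO_Adult and 30.9% in KO_Aged against WT_Adult. In KO_Adult against WT_Adult 0 rose and 3 fell: Bsg (-0.85, SE 0.25, adjusted p = 0.0271), the chaperone that carries MCT1 and MCT4 to the membrane, Gpd2 (-0.55, SE 0.12, adjusted p = 0.00574), the mitochondrial partner of Gpd1, and Pgm1 (-0.50, SE 0.17, adjusted p = 0.0483), which links glycogen to glycolysis. In WT_Aged against WT_Adult 4 rose and 4 fell, among them Gpd2 (-1.02), Bsg (-1.27), the neuronal-type glucose transporter Slc2a3 (1.36) and Emb (1.5), another chaperone of monocarboxylate transporters. At matched status 0 of 10 were called in KO_Adult against WT_Adult, and in KO_Aged against WT_Adult 2 rose, Emb (2.11) and Slc2a3 (0.97), and 3 fell, Gpd2 (-0.60), Pgm1 (-0.62) and Bsg (-0.64). Bsg was lower on control-positive than control-negative KO_Adult arrays (-1.30, SE 0.20, adjusted p = 0.00116).

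Of 12 further glycogen genes tested (23 listed, 14 measured), 0 were called in KO_Adult against WT_Adult, against 16.7% of all genes. In WT_Aged against WT_Adult 2 rose and 4 fell, against 38.9% of all genes called. In KO_Aged against WT_Aged 0 rose and 2 fell, against 29.4% of all genes called. The liver phosphorylase Pygl rose in WT_Aged (0.84, adjusted p = 0.0155) and, both control-negative, in KO_Aged (0.97, adjusted p = 0.0125) against WT_Adult. All 14 measured regulators of these pathways, of 19 listed, were tested, and their counts stand against the same shares of all genes. In WT_Aged against WT_Adult 2 rose, Hif1a (1.86, adjusted p = 0.00507) and Myc (1.63, adjusted p = 0.0011), and 7 fell, including the glucose-responsive factors Mlxip (-1.09, adjusted p = 0.00029) and Mlxipl (-1.19, adjusted p = 0.0061). Hif1a was also higher on control-positive KO_Adult arrays (1.81, adjusted p = 0.0198), and at matched status in KO_Aged against WT_Adult (1.43, adjusted p = 0.00978). Tbc1d1, which restrains GLUT4 until contraction or insulin signals, was lower in KO_Aged than in KO_Adult (-0.72, adjusted p = 0.0117), WT_Aged (-0.88, adjusted p = 0.000554) and WT_Adult (-1.0, adjusted p = 0.000217). Epas1, a hypoxia-inducible factor strong in endothelium, was the 1 regulator that fell in KO_Adult against WT_Adult (-2.03, adjusted p = 0.0207).

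Markers of other cells also moved between the groups. Of 10 endothelial markers 8 fell in KO_Adult against WT_Adult (16.7% of all genes called), with a summed signal of 3448 to 4009 against 7289 to 8799. At matched status 7 fell (6.67% of all genes called). Of 5 tested neutrophil markers all 5 rose in WT_Aged against WT_Adult, where 38.9% of all genes were called, 18.1% higher. All 5 also rose in KO_Aged against WT_Adult, where 30.9% of all genes were called, 15.8% higher. Of 9 macrophage markers 3 rose in the first of these comparisons, in which control status also differs between the groups. No endothelial marker was at 0, the dimmest value being 59.8 for Tie1. The part of these cells in the values of Slc2a1, Slc16a3 and the other genes was not tested.

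RefSeq start windows of 300 bases (250 before and 50 after the start, GRCm38.p6) matched 30 of the 32 measured genes, with 41 windows. ACGTG, searched on both strands, was in 22 of the 41 windows (53.7%) and in 19.6% of all 32851 windows, and GCGTG in 46.3% against 32.4%. The E-box CANNTG was in 78% against 72.3%, and its form CACGTG, which contains ACGTG, in 14.6% against 7.15%. The MEF2 site was in 2.44% against 3.19%. The gene windows were richer in G and C, with a median of 60.3% against 52.7% over all windows, and the part of base composition in these shares was not tested. ACGTG was in a window of 5 of 11 matched genes that fell in WT_Aged against WT_Adult and of 13 of the 18 other tested ones.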

How the data were processed

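The deposited values are probe set intensity values on a linear scale, made by the authors with MAS5 per the submitters' processing notes, with a version not given in the sources used here. Each value is 1 probe set on 1 array; the lowest deposited value was 1, and 2819 values sat there. The table held 22690 probe sets. The platform annotation gave exactly 1 gene symbol to 20393, several to 691 and none to 1606, and only the first kind was used. Of 64 control probe sets, 13 name a mouse gene and were kept.

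A pseudocount of 4.758, which is percentile 10 of the whole table, was added before log2; a difference on this scale understates the change of dim genes. Array medians spanned 0.6312 log2, above a limit of 0.5, so arrays were quantile normalised. Where a gene had several probe sets the one with the highest mean was used, and the brightest 60% of genes, by the mean of all arrays, were tested. One model with a mean per group was fitted over 19 arrays (limma 3.58.1, lmFit and eBayes, R 4.3.3), and p-values were adjusted by Benjamini-Hochberg over all genes tested. A second model, with 5 means, split KO_Adult by poly-A control status (dap signal over 100) and gave the comparisons at matched status. Another had status as a term, which can be estimated only through KO_Adult. It is the same fit as the second model written another way. For KO_Adult against WT_Adult and for KO_Aged against KO_Adult the 2 give identical values and are not separate checks. On simulated data for KO_Adult against WT_Adult over 7436 genes, 70% of 100 genes changed by 1 on the log2 scale and 95% of 100 changed by 2 were recovered, with 10 unchanged genes called. The simulated arrays had no difference by control status and noise that was independent between genes. These shares therefore need not hold for the measured arrays. Depth has no meaning for arrays; their number limits the precision.

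The genes, lists, alternatives and status split were chosen with earlier results of these data known. Genes were given on every array if called in a pairwise group comparison whose arrays did not overlap, or if one of the 4 transporters; others by range. From the further pathway lists at most 4 called genes a comparison were named. No array was left out of these models; alternatives that left some out are given in the closing section. RefSeq promoter windows were searched in Python 3.11.15. Tables were handled with pandas 2.3.3 and numpy 2.4.6, and plots were drawn with matplotlib 3.10.9.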

Additional observations from a re-analysis of the deposited data

Results flagged for a closer look

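Of 128 groups of arrays checked, each a measured gene in 1 of the 4 groups, 3 held an array far from the others, where chance gives about 1 in 20. Aldoc, an aldolase of brain that was too dim to test here, read 3.74 on WT_Adult 5 against 26.5 to 36.6 on the other WT_Adult arrays, and 2.02 on KO_Adult 4 against 36.4 to 57.1 on the other KO_Adult arrays. Pgk1 read 13216 on WT_Aged 5 against 11633 to 12066 on the other WT_Aged arrays; without WT_Aged 5 its difference between the wild-type ages was still called.

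For 9 genes the age difference in the knockout differed from that in the wild type by the interaction term. Its values were 4.30 for Slc16a3, 2.75 for Pfkl, 2.17 for Pkm, 1.48 for Ldhb, 1.48 for Pygm, 1.48 for Gys1, 1.04 for Phkg1, 1.02 for Phkg2 and 0.83 for Slc2a4, each positive. Among the wild-type arrays the aged ones were control-positive and the adult ones control-negative, while all KO_Aged arrays were control-negative, and with control status as a term 0 of the 9 were called. Their values with the term were, in the same order, 1.18, 0.12, 1.02, 0.81, 0.68, 1.4, -0.49, -0.67 and 0.40.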

How the results depend on the processing

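Counts are of the 31 genes called, in the order KO_Adult against WT_Adult (7), KO_Aged against WT_Aged (10), WT_Aged against WT_Adult (14), KO_Aged against KO_Adult (3), the interaction (9), and at matched status KO_Adult against WT_Adult (2), KO_Adult against WT_Aged (4), KO_Adult with against without controls (9), KO_Aged against WT_Adult (10) and KO_Aged against KO_Adult (1). With control status as a term the first 5 became 2, 1, 0, 1 and 0, and also without the arrays with a high Gapdh ratio 2, 1, 0 and 0 (KO_Aged against KO_Adult excepted). Without those arrays alone KO_Aged against WT_Aged gave 5, against KO_Adult 0, against WT_Adult 5 and, at matched status, against KO_Adult 2. Fits of only the groups compared gave 4, 0 for KO_Aged against KO_Adult, and 0, 6 and 0 for the matched KO_Adult against WT_Adult, KO_Aged against WT_Adult and KO_Aged against KO_Adult. Array weights gave 15 for KO_Adult against WT_Adult, 8 for KO_Aged against KO_Adult, 18 for the interaction, and 1, 11, 17 and 5 at matched status (KO_Aged against WT_Adult excepted). With no filter on dim genes KO_Aged against WT_Aged gave 6, KO_Aged against KO_Adult 1, and the matched comparisons 0, 2 and 5 (KO_Adult against WT_Adult, KO_Adult against WT_Aged, KO_Aged against WT_Adult). At an adjusted p under 0.01 there were 5, 9 and 0 for KO_Aged against WT_Aged, WT_Aged against WT_Adult and KO_Aged against KO_Adult, and 0, 2 and 5 for the same matched comparisons. Median centring gave 1 for KO_Aged against KO_Adult and 1, 2 and 2 for the matched KO_Adult against WT_Adult, KO_Adult against WT_Aged and KO_Aged against KO_Adult. For matched KO_Adult against WT_Aged, averaging probe sets gave 0 and the title code as a random block 2. For matched KO_Aged against KO_Adult, averaging probe sets gave 4, and no normalisation, the upper 40% of genes or a trended, robust variance gave 2 each. Leaving out single arrays gave, in the order above, 7 to 9, 6 (without KO_Aged 3) to 10, 12 to 15, 0 (KO_Adult 3) to 4, 8 to 12, 0 (WT_Adult 3) to 2, 1 (KO_Adult 5) to 4, 3 (KO_Adult 1) to 9, 6 (KO_Aged 3) to 10, and 0 (KO_Adult 1) to 3.

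Values that changed sign were Slc2a4 in KO_Aged against WT_Aged with probe sets averaged (-0.15) and, with status as a term, Pfkl (-0.20), Phkg2 (-0.30) and Slc16a3 (-0.36) in KO_Aged against WT_Aged, Gpd1 (0.22) and Phkg2 (0.29) in WT_Aged against WT_Adult, and Phkg1 (-0.49) and Phkg2 (-0.67) in the interaction. Without the arrays with a high Gapdh ratio as well, these were -0.38, -0.51, -0.19, 0.22, 0.29, -0.51 and -0.87, and Pfkl in the interaction was -0.058. Of 69 called values 66 stayed called with no normalisation, 68 with a pseudocount of 1, 69 with 32, and 46 under median centring, none with the other sign. The cause of these changes was not tested. No paired analysis was possible because the labels give the groups no shared replicate numbers; the code in the sample titles is shared between groups only by WT_Aged 4 and 5 and KO_Aged 4, and with it as a random block 63 of 69 called values stayed called. Probe set signals near background limit Aldoc and Pgm2, and the top of the intensity range limits Aldoa and Eno3. On the control-positive arrays Pfkl (58.0 to 130) and Phkg2 (92.5 to 170) were about as dim as Pgm2 (67.2 to 164). The size of their differences by control status is limited in the same way.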
